A study of Homo sapiens with 28 samples.

Results

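NIPBL is the loading factor that helps the cohesin ring close around DNA and run along it, and it is known to sit at active promoters and enhancers. Cohesin, of which RAD21 and SMC3 are core subunits, travels away from where it is loaded and is held at sites of the zinc finger protein CTCF. A site of the loader need therefore not be a site where the ring is found. The sites described here are the NIPBL peaks of chromatin immunoprecipitation followed by sequencing (ChIP-seq) that shared no base with a RAD21, SMC3 or CTCF peak in cells given a control siRNA. There were 5012 of them among 11694 control NIPBL peaks, or 42.9% (95% Clopper-Pearson interval 42.0 to 43.8). They are called loader-only sites below, a name for the rule and not for a function. They were chosen by the control peak positions of NIPBL, RAD21, SMC3 and CTCF, so those positions, and the control NIPBL values, are given as a description without a test. Of all control NIPBL peaks, 40.5% overlapped a control RAD21 peak, 46.3% an SMC3 peak and 25.9% a CTCF peak, and the loader-only sites overlapped none by construction.

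The cells were GP5d, a long-cultured line from a human colon adenocarcinoma, which received 50 nM siRNA and were collected after 72 h. The control group received a neutral siRNA without a target, and the other group received siRNA against RAD21. Peak lists were deposited for 11 targets under each siRNA, each from 1 library, so no difference between the siRNAs has a replicate check and intervals cover counting error only. The targets were NIPBL, RAD21, SMC3, CTCF, the enhancer mark H3K4me1 and 6 further transcription factors, and the pair of siRNAs gave 393268 peaks in all.

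Library facts bear on every value below. Filtered tags ranged from 3629966 to 19926326 in the control ChIP libraries and from 1747770 to 15263937 in those of RAD21 siRNA. For NIPBL these were 19926326 with the control siRNA and 7006171 with RAD21 siRNA, so loss of NIPBL at a site and lower depth cannot be told apart. Peaks were called against immunoglobulin G (IgG) libraries, of goat for CTCF and RFX2 and of rabbit for the other targets. The rabbit library had 8916252 filtered tags in the control group and 4101535 in the RAD21 siRNA group. The RAD21 lists held 36204 and 19752 peaks. Lists called against 1 IgG library share its errors, and the part of this in any shared peak was not tested. No control NIPBL peak had a false discovery rate (FDR) under 5%, against 1441 of 6068 NIPBL peaks under RAD21 siRNA.

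The loader-only sites were narrower and mostly weaker than the other 6682 control NIPBL peaks. Their median width was 988 bp (quartiles 752 and 1306, range 320 to 5007), against 1088 bp (839 and 1470) for the others. They held a median of 43.0 tags (26.0 and 75.0, range 12.0 to 673), against 48.0 (31.0 and 79.0). The median significance, on the −10 × log10 p scale that starts at 50.0, was 69.6 (57.1 and 95.3) against 84.4 (63.4 and 122). Median fold enrichment over the local background was close, at 5.92 and 6.10. At the strong end the order differed. Of the loader-only sites, 95 had −10 × log10 p of 400 and above, against 90 of the more numerous other peaks, and the median there was 625 against 530. Most of the class was thus faint and a small part of it was among the strongest NIPBL peaks.

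**Figure D1:**
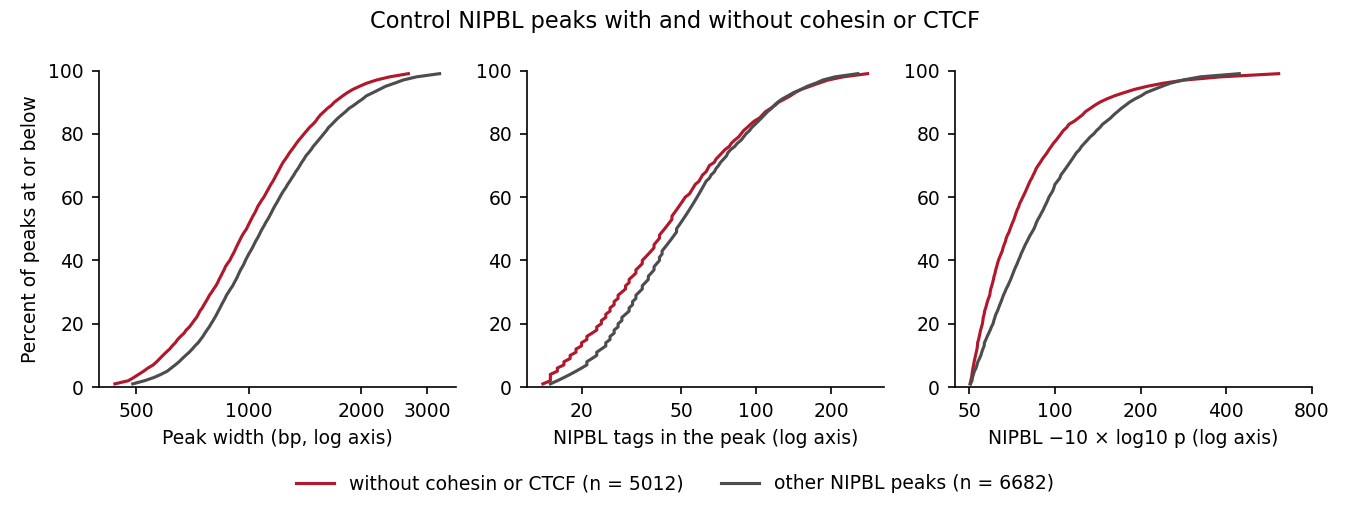
Percent of control NIPBL peaks at or below each width (bp), tag count and −10 × log10 p, drawn from the first to the 99th percentile on log axes, for the 5012 loader-only sites (red) and the 6682 other peaks (grey). The red curves lie to the left over most of each panel (median width 988 against 1088 bp) and cross to the right in the upper tail of p.

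The rule draws a line at 1 shared base. The 35 loader-only sites within 100 bp of a RAD21, SMC3 or CTCF peak had a median width of 960 bp, 48.0 tags and −10 × log10 p of 69.4. The 17 other peaks that shared at most 100 bp with such a peak had 882 bp, 39.0 tags and 64.5. Few peaks lay at the line. Over the 5011 sites with such a peak on their chromosome, the median gap from a loader-only site to the nearest control RAD21, SMC3 or CTCF peak was 10818 bp (quartiles 4388 and 24444), and 378 sites (7.54%) were within 1000 bp.

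H3K4me1, the monomethylation of histone H3 that marks enhancers and the flanks of promoters, lay over most loader-only sites. Under control siRNA 3985 of 5012 had an H3K4me1 peak, or 79.5% (78.4 to 80.6), against 83.2% of all control NIPBL peaks and 86.0% of those with cohesin or CTCF. At like NIPBL strength, averaged over 5 strata of p, the loader-only share minus that of the other peaks was −4.81 percentage points (95% interval −6.23 to −3.38). The difference was −9.98 among peaks with −10 × log10 p of 100 or more, and −2.74 where H3K4me1 and the lists of the rule were limited to an FDR under 5%. The catalogue number that the labels list for this antibody is generally known as one against histone H3 whatever its modification, so which mark was measured is not settled here.

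These H3K4me1 regions were broad and the NIPBL summit was seldom at their peak. The H3K4me1 peak at a loader-only site had a median width of 3937 bp and 228 tags, against 2384 bp and 100 tags over all 61108 control H3K4me1 peaks. At NIPBL peaks with cohesin or CTCF it was 4368 bp and 289 tags. The H3K4me1 summit lay a median of 638 bp from the NIPBL summit at loader-only sites and 597 bp at the others, and within 250 bp at 20.2% (19.0 to 21.5) and 22.1% (21.0 to 23.2).

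Under RAD21 siRNA 3741 loader-only sites (74.6%, 73.4 to 75.8) had an H3K4me1 peak, against 78.0% of all control NIPBL peaks. Of the sites with the mark under control siRNA, 89.0% (88.0 to 90.0) had it under RAD21 siRNA, and 90.2% of the marked other NIPBL peaks did. A further 194 sites had an H3K4me1 peak under RAD21 siRNA alone and 438 under control siRNA alone. The mark was the readout that differed least between the siRNAs at these sites, as a share of the sites that had it, among H3K4me1 and the 6 factors.

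Transcription factors occupied loader-only sites less often than other NIPBL peaks. At least 1 of HNF4A, JUND, KLF5, MYC, REST and RFX2 had a control peak at 3112 sites, or 62.1% (60.7 to 63.4), against 70.3% of all control NIPBL peaks and 76.5% of the others. The difference at like strength was −9.82 percentage points (−11.5 to −8.14), and −5.91 where the other lists were limited to an FDR under 5%. It was −10.8 without JUND, whose control list had no peak at that FDR.

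MYC, the growth regulator that binds E-boxes at active promoters, was the factor most often found there. A control MYC peak overlapped 1947 loader-only sites (38.8%, 37.5 to 40.2), against 49.3% of all control NIPBL peaks and a difference from the others of −13.1 points at like strength (−14.9 to −11.3). HNF4A, a nuclear receptor that maintains gut and liver epithelium, was at 1194 sites (23.8%, 22.6 to 25.0; all control NIPBL peaks 31.6%), with a difference of −11.0 (−12.6 to −9.31). KLF5, a Krüppel-like factor active in dividing crypt cells, was at 991 (19.8%, 18.7 to 20.9; all 26.1%), with −7.86 (−9.43 to −6.30). JUND, one of the AP-1 proteins, was at 685 (13.7%, 12.7 to 14.6; all 18.8%), with −6.23 (−7.60 to −4.85). Each of these intervals lay below 0.

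REST, which represses neuronal genes outside the nervous system, was rare and not distinguishable between the classes. It was at 70 loader-only sites (interval of the share 1.09% to 1.76%; all control NIPBL peaks 1.49%), with a difference of −0.111 (−0.553 to 0.331). RFX2, an activator of cilium genes, was at 107 (2.13%, 1.75 to 2.57; all 2.55%), with a difference of −0.307 (−0.891 to 0.277).

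**Figure D2:**
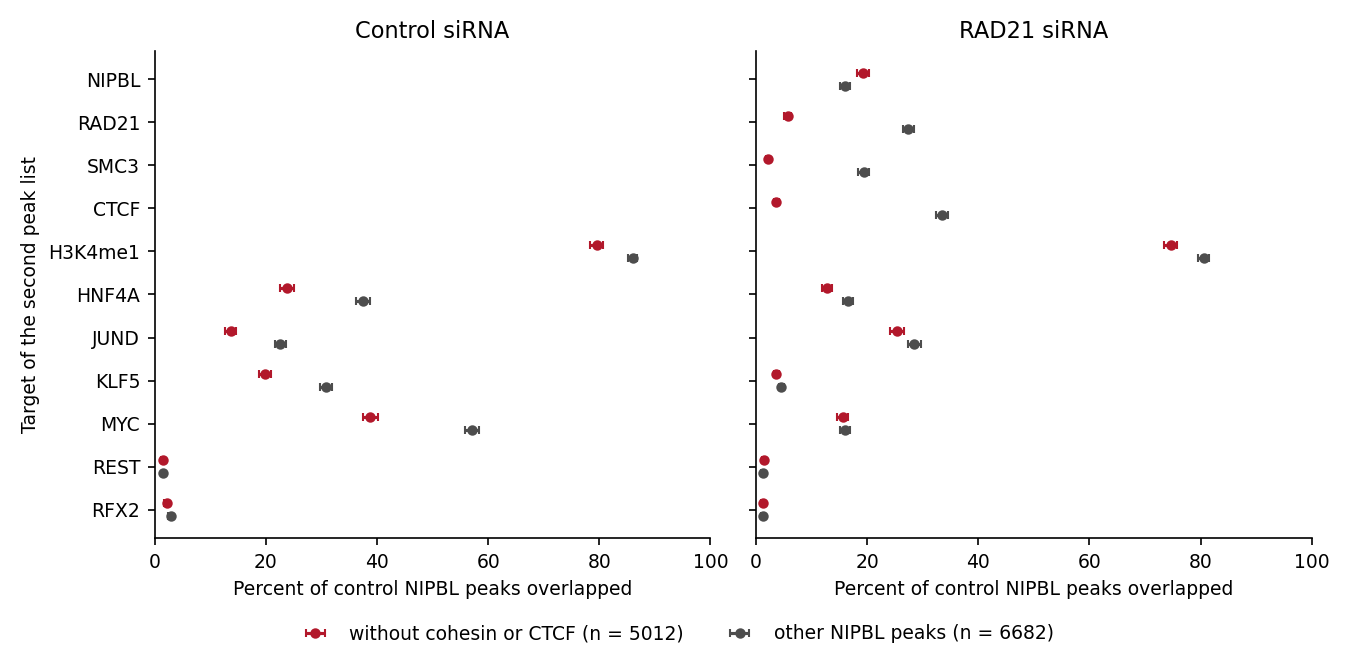
Percent of control NIPBL peaks overlapped by a peak of each target (rows), under control siRNA (left) and RAD21 siRNA (right), with 95% Clopper-Pearson intervals, for loader-only sites (red) and other NIPBL peaks (grey). The control NIPBL, RAD21, SMC3 and CTCF shares are set by the rule and are not drawn. Under RAD21 siRNA the gap between the classes in RAD21, SMC3 and CTCF cannot be told apart from the rule. MYC stands at 38.8% against 57.1% under control siRNA and 15.6% against 16.1% under RAD21 siRNA.

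Factors were seldom stacked at loader-only sites. None of the 6 was found at 1900 sites (37.9%, against 23.5% of the other NIPBL peaks), 1 at 1691 (33.7% against 28.7%), 2 at 1024 (20.4% against 25.4%), 3 at 336 (6.70% against 16.8%) and 4 or 5 at 58 and 3. The most frequent single set was MYC alone, at 782 sites, followed by HNF4A alone at 454 and KLF5 with MYC at 320. HNF4A with KLF5 and MYC was at 112 sites (2.23%), against 7.41% of the other peaks. The difference between the classes was thus larger for combinations of 3 factors than for MYC or HNF4A standing alone (15.6% against 15.0%, and 9.06% against 7.17%). These exact sets were not compared at like NIPBL strength.

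By chromatin, NIPBL sites fell into 4 kinds. Loader-only sites with both H3K4me1 and a factor numbered 2743 (54.7%), with a median of 55.0 NIPBL tags and a width of 1127 bp. Those with H3K4me1 and no factor numbered 1242 (24.8%; 32.5 tags, 870 bp) and those with a factor and no H3K4me1 369 (7.36%; 49.0 tags, 1008 bp). The 658 sites (13.1%) with neither held the fewest tags, a median of 22.0, and were the narrowest, at 692 bp. Their median fold enrichment was nevertheless the highest of the 4 kinds, at 6.78 against 5.62, 5.98 and 6.10. Of the other NIPBL peaks, 70.7% had both, 15.3% H3K4me1 only, 5.76% a factor only and 8.22% neither. Taken as 1 group, sites with H3K4me1 or a factor were 86.9% of the class, against 89.7% of all control NIPBL peaks.

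NIPBL itself was found again at a larger share of loader-only sites than of other NIPBL peaks. A site is called retained where a NIPBL peak under RAD21 siRNA overlapped it, and lost otherwise. Under RAD21 siRNA a NIPBL peak overlapped 967 of the 5012 (19.3%, 18.2 to 20.4), against 17.4% of all control NIPBL peaks and 1069 of 6682 of the others (16.0%, 15.1 to 16.9). At like strength the loader-only share was higher by 7.01 percentage points (5.66 to 8.37). It was higher by 19.2 points (16.0 to 22.4) among control peaks with −10 × log10 p of 100 or more, and by 3.30 (1.89 to 4.70) without strata and 3.63 (2.23 to 5.04) with strata of fold enrichment.

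The gap was largest from 200 to 400 on the scale of NIPBL significance and smaller above it. From 50 to 60 on the −10 × log10 p scale, 8.55% (7.23 to 10.0) of loader-only sites and 9.36% (7.82 to 11.1) of the others were found again. From 100 to 200 the shares were 33.9% (30.7 to 37.2) and 20.3% (18.5 to 22.2), and from 200 to 400 they were 70.8% (63.9 to 77.2) and 38.5% (34.0 to 43.1). At 400 and above, 90 of 95 loader-only sites (94.7%, 88.1 to 98.3) and 75 of 90 others (83.3%, 74.0 to 90.4) had a NIPBL peak under RAD21 siRNA. Intervals overlapped below 80 and at 400 and above, and were apart in the classes from 80 to 400.

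Retained sites were richer in tags at the same fold enrichment. They held a median of 102 control tags over 1326 bp, or 73.4 tags per kb, against 37.0 tags over 922 bp, or 38.1 per kb, at lost sites. Their fold enrichment was 5.97 and 5.92. At the retained sites the NIPBL peak under RAD21 siRNA had a median of 33.0 tags, a width of 1207 bp and a fold enrichment of 10.8, and 423 of the 967 (43.7%, 40.6 to 46.9) had an FDR under 5%. Scaled to 1000000 filtered tags of its library, the median tag count was 5.12 under control siRNA and 4.71 under RAD21 siRNA. For retained NIPBL peaks with cohesin or CTCF these medians were 4.87 and 3.85.

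What else lay at a loader-only site went with whether NIPBL was found again. With MYC under control siRNA, 591 of 1947 sites were retained (30.4%, 28.3 to 32.5), against 376 of 3065 without (12.3%, 11.1 to 13.5), a difference at like NIPBL strength of 11.4 points (9.09 to 13.8). With RFX2 it was 56 of 107 (52.3%, 42.5 to 62.1) against 18.6% (17.5 to 19.7), a difference of 26.0 (17.0 to 35.0). HNF4A ran the other way, with 148 of 1194 (12.4%, 10.6 to 14.4) against 21.5% (20.2 to 22.8), or −10.1 (−12.3 to −7.88). With JUND 20.1% were retained and without it 19.2%, but the difference at like strength was −4.96 (−8.10 to −1.81). With KLF5 it was 23.8% and 18.2%, with a difference at like strength of −0.373 (−3.21 to 2.46). The direction for JUND thus turned with the strata. H3K4me1 had −0.661 (−3.07 to 1.75) and REST 0.0658 (−8.64 to 8.77), and the intervals of these 2 and of KLF5 included 0. In all of these differences the top stratum of the 5 ran from about 105 to 1943, so strength was alike there only in part. The strata were of p and not of tags or width. Sites with MYC held a median of 63.0 tags over 1178 bp, and those without held 34.0 over 885 bp. The median tags with and without RFX2 were 103 and 42.0, and with and without HNF4A 47.0 and 41.0. By kind of chromatin, 22.9% (21.3 to 24.5) of sites with both H3K4me1 and a factor were retained, 11.8% (10.1 to 13.8) with H3K4me1 only, 29.8% (25.2 to 34.8) with a factor only and 12.5% (10.0 to 15.2) with neither. The other NIPBL peaks had 18.1%, 8.81%, 23.9% and 5.65%, highest with a factor only and next with both, as in the class. Over exact sets, sites with MYC alone kept NIPBL at 38.7%, sites with MYC and RFX2 at 51.4%, and sites with HNF4A alone at 6.17%.

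What lay at loader-only sites varied with NIPBL strength, and not in 1 direction. H3K4me1 was at 74.3% (72.1 to 76.5) of sites from 50 to 60. It was at 84.3% (81.7 to 86.7) of sites from 100 to 200 and at 60 of 95 (63.2%, 52.6 to 72.8) of those at 400 and above. In the same 3 classes HNF4A was at 19.6% (17.7 to 21.6), 31.2% (28.1 to 34.4) and 1 of 95 (1.05%, 0.0266 to 5.73). KLF5 was at 13.4% (11.7 to 15.1), 32.0% (28.9 to 35.3) and 17.9% (10.8 to 27.1), and MYC at 25.1% (23.0 to 27.3), 59.1% (55.7 to 62.4) and 55.8% (45.2 to 66.0). The strongest sites thus had less HNF4A than either weaker class, and MYC more often than the faintest. Other NIPBL peaks also had less HNF4A and KLF5 at the top, with HNF4A at 49.4% from 100 to 200 and 22.2% (14.1 to 32.2) at 400 and above, and KLF5 at 41.4% and 26.7% (17.9 to 37.0). The path between differed. From 200 to 400 HNF4A was at 15.1% (10.4 to 21.0) of loader-only sites and 58.4% (53.8 to 63.0) of other peaks. KLF5 was at 33.9% (27.2 to 41.0) and 53.2% (48.5 to 57.8) there. At the strongest other peaks H3K4me1 was at 84.4% (75.3 to 91.2) and MYC at 74.4% (64.2 to 83.1). Neither H3K4me1 nor any of the 6 factors had a control peak at 16 of the 95 (16.8%, 9.94 to 25.9). The same was so for 13.1% of the whole class and 8 of 90 (8.89%, 3.92 to 16.8) of the strongest other peaks.

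**Figure D3:**
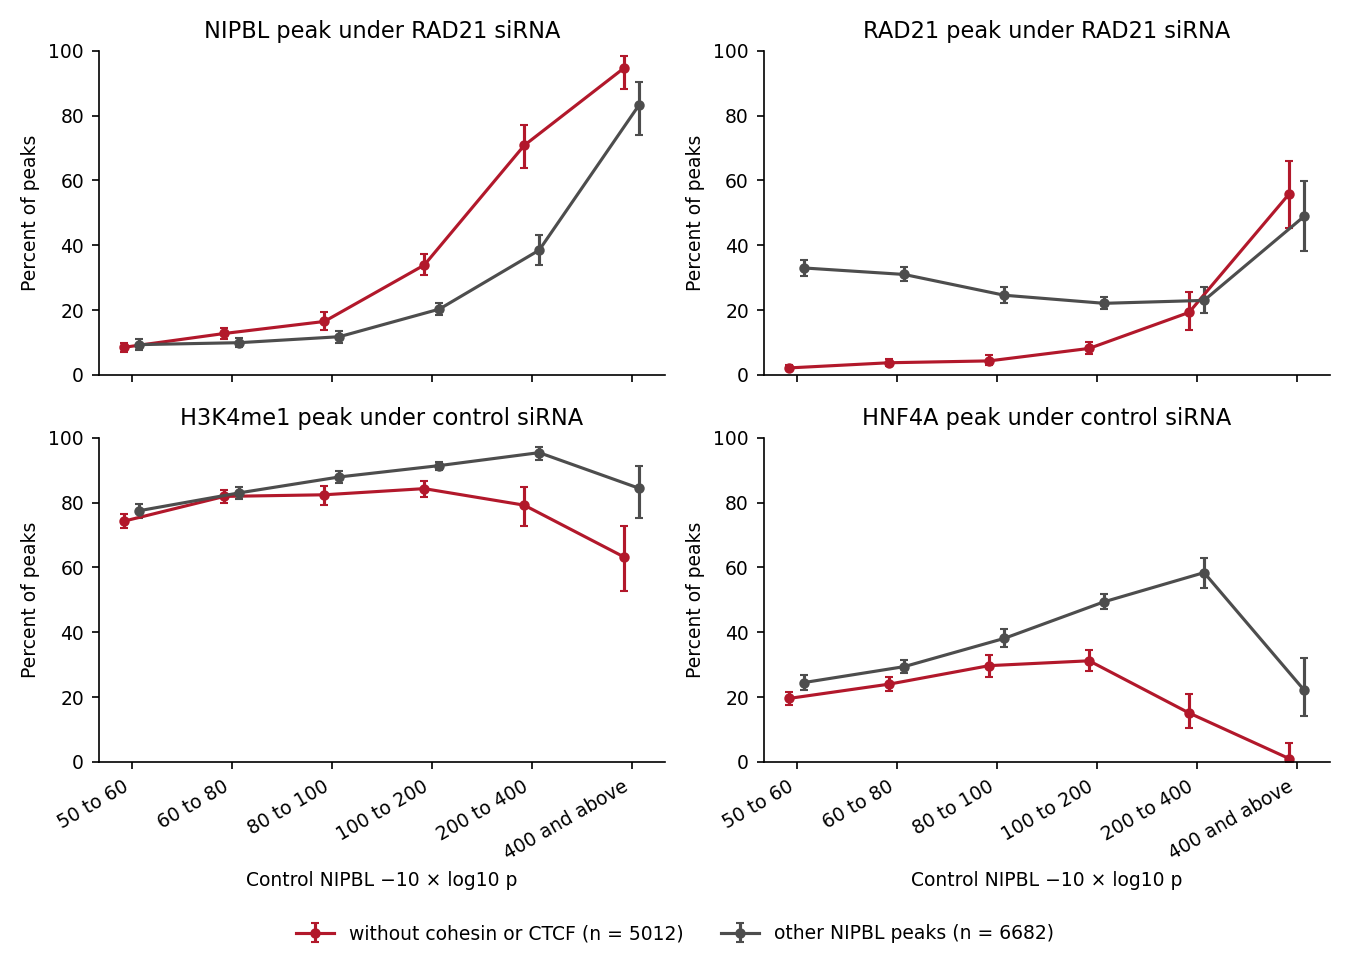
Percent of control NIPBL peaks in each class of −10 × log10 p with a NIPBL or RAD21 peak under RAD21 siRNA (top) or an H3K4me1 or HNF4A peak under control siRNA (bottom), for loader-only sites (red) and other NIPBL peaks (grey), with 95% Clopper-Pearson intervals. NIPBL was found again at 70.8% against 38.5% from 200 to 400. RAD21 was at 55.8% of the strongest loader-only sites and 48.9% of the strongest other peaks, whose choice used control RAD21.

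Under RAD21 siRNA JUND peaks lay at more loader-only sites than under control siRNA, and HNF4A, KLF5, MYC and RFX2 peaks at fewer. HNF4A peaks overlapped 641 loader-only sites (12.8%, 11.9 to 13.7; all control NIPBL peaks 15.0%), KLF5 183 (3.65%, 3.15 to 4.21; all 4.18%) and MYC 781 (15.6%, 14.6 to 16.6; all 15.9%). JUND overlapped 1270 (25.3%, 24.1 to 26.6; all 27.1%). The ratio of sites with a peak under RAD21 siRNA to sites with one under control siRNA was 0.537 for HNF4A, 0.185 for KLF5, 0.401 for MYC and 1.85 for JUND, beside ratios of the whole lists of 0.637, 0.229, 0.535 and 2.63. REST was at 73 sites (1.46%, all 1.31%) and RFX2 at 62 (1.24%, all 1.21%). Filtered tags under control and RAD21 siRNA were 8949817 and 4993835 for HNF4A, and 9257960 and 3286941 for KLF5. They were 6787207 and 4203643 for REST, 3629966 and 1747770 for RFX2, and 9603820 and 9801218 for MYC. The MYC lists were unlike in spite of similar filtered tags. An FDR under 5% was reached by all 13589 control MYC peaks and by 936 of 7264 MYC peaks under RAD21 siRNA. The part of depth and of weak calls in these changes was not tested. Any of the 6 factors was at 1830 sites (36.5%, 35.2 to 37.9; all 39.7%).

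The gap between the classes was narrower under RAD21 siRNA. At like NIPBL strength, MYC was higher at loader-only sites by 1.66 points (0.304 to 3.01), where it had been lower under control siRNA. HNF4A differed by −2.58 (−3.87 to −1.28). JUND differed by −0.389 (−2.02 to 1.24) and KLF5 by −0.323 (−1.07 to 0.421). Whether a difference under one siRNA differed from that under the other was not tested, since each rests on 1 library.

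Which sites a factor held changed as well. MYC was found under both siRNAs at 599 loader-only sites, under control siRNA alone at 1348 and under RAD21 siRNA alone at 182. Of its control sites in the class it was found again at 30.8% (28.7 to 32.9), against 24.4% at other NIPBL peaks. HNF4A was found again at 35.2% (32.5 to 38.0) and 34.7%, and KLF5 at 13.5% (11.5 to 15.8) and 12.1%. JUND was under both siRNAs at 298 sites, under control siRNA alone at 387 and under RAD21 siRNA alone at 972. The JUND libraries differed in depth, with 7558614 filtered tags in the control group and 15263937 in the RAD21 siRNA group. An FDR under 5% was reached by 718 of 12319 JUND peaks under RAD21 siRNA and by no control JUND peak. The part of depth and of weak calls in the JUND gains was not tested. No peak of any of the 11 targets remained under RAD21 siRNA at 1001 of the 5012 loader-only sites. This count was not made for the other NIPBL peaks, so it does not show whether such loss was particular to the class. The part of lower depth in it was not tested.

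**Figure D4:**
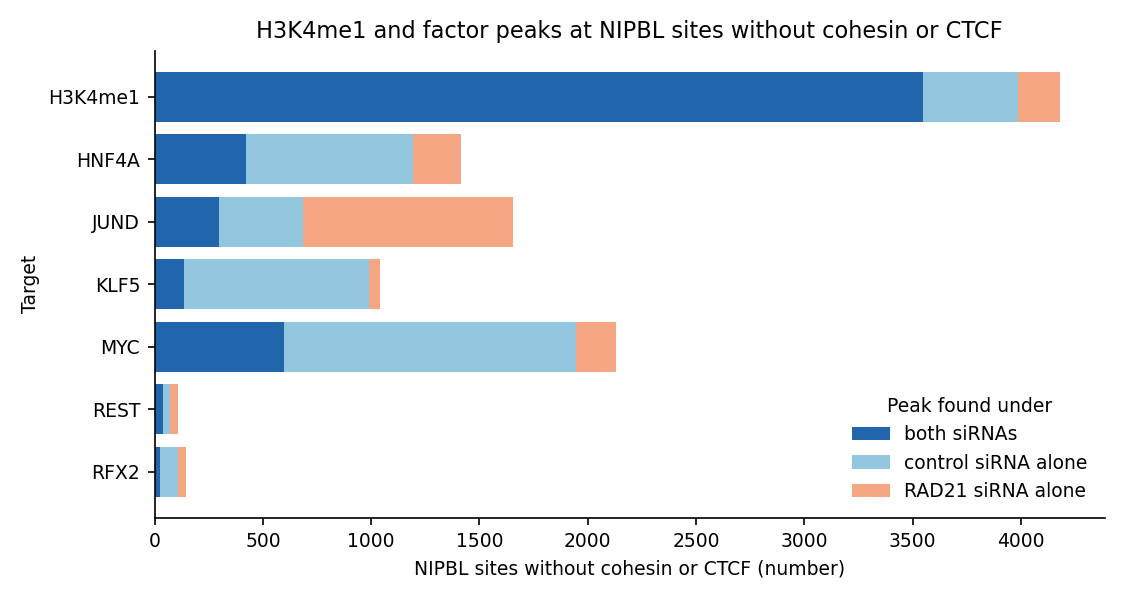
Number of loader-only sites with a peak of each target under both siRNAs (dark blue), control siRNA alone (light blue) or RAD21 siRNA alone (orange). H3K4me1 was shared at 3547 sites, MYC was under control siRNA alone at 1348, and JUND was under RAD21 siRNA alone at 972.

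Cohesin, absent by the rule under control siRNA, had peaks at some loader-only sites under siRNA against its own subunit. RAD21 peaks were at 284 (5.67%, 5.04 to 6.34; all control NIPBL peaks 18.1%) and SMC3 peaks at 106 (2.11%, 1.73 to 2.55; all 12.0%). One or the other was at 354 (7.06%, 6.37 to 7.81; all 20.4%) and both at 36, so 248 sites had RAD21 without SMC3 and 70 had SMC3 without RAD21. CTCF was at 183 (3.65%, 3.15 to 4.21; all 20.7%), 159 of them without either subunit, and all of RAD21, SMC3 and CTCF were at 5. The other NIPBL peaks were chosen for holding these proteins under control siRNA, so no comparison with them is drawn.

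These cohesin peaks were weak by the standard of their own lists. The RAD21 peaks at loader-only sites had medians of 26.0 tags, 76.5 in −10 × log10 p and 8.98 in fold enrichment, against 29.0, 107 and 12.7 over all 19752 RAD21 peaks under RAD21 siRNA. An FDR under 5% was reached by 118 of the 284 (41.5%, 35.8 to 47.5). The SMC3 peaks had 23.0 tags, 63.1 and 7.99, against 25.0, 84.4 and 10.1 over all 12548, and 6 of 106 (5.66%, 2.11 to 11.9) had an FDR under 5%. In the RAD21 list under RAD21 siRNA, 2706 peaks (13.7%) overlapped no control RAD21 peak, and 283 of those (10.5%) lay at loader-only sites. For SMC3 it was 105 of 1465 (7.17%). The rule bars control cohesin from these sites, so nearly any cohesin peak there had to be without a control peak. That held for 283 of 285 RAD21 peaks and 105 of 106 SMC3 peaks, so these shares partly restate the rule. Other NIPBL peaks held 158 (5.84%) and 44 (3.00%) of the peaks without a control peak. They were chosen for control cohesin or CTCF, so no comparison is drawn. With lists limited to an FDR under 5%, a cohesin peak was at 2.29% (1.94 to 2.69) of the 6278 sites that then met the rule.

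RAD21 and SMC3 under RAD21 siRNA both lay more often at sites from 100 to 200 than at the faintest, and RAD21 alone rose further in the stronger classes. RAD21 was at 2.18% (1.53 to 3.03) of loader-only sites from 50 to 60 and at 8.19% (6.42 to 10.2) from 100 to 200. It was at 19.3% (13.9 to 25.6) from 200 to 400 and at 53 of 95 (55.8%, 45.2 to 66.0) from 400. SMC3 had 1.25% (0.764 to 1.92), 3.91% (2.71 to 5.45), 4.17% (1.82 to 8.04) and 3 of 95 (3.16%, 0.656 to 8.95) in the same classes. CTCF had 7.37% (3.01 to 14.6) in the strongest class. RAD21 was also at 44 of 90 (48.9%, 38.2 to 59.7) of the strongest other NIPBL peaks, which were chosen for control cohesin or CTCF. At the sites that were strongest for NIPBL, the pair of cohesin subunits was therefore seldom called together. The libraries held 9052392 filtered tags for RAD21 and 9103494 for SMC3, but their lists held 19752 and 12548 peaks, 12347 and 3829 of them with an FDR under 5%. The part of this in the difference was not tested.

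Sites with a cohesin peak under RAD21 siRNA had NIPBL, H3K4me1, JUND and MYC in the same treatment at most of their number, and HNF4A and KLF5 at a minority that was still larger than elsewhere in the class. NIPBL was at 253 of 354 (71.5%, 66.5 to 76.1), against 15.3% (14.3 to 16.4) of the sites without. The difference at like control NIPBL strength was 46.4 points (41.8 to 51.0). The top stratum of the 5 ran from about 105 to 1943, so strength was alike there only in part, here and for the targets below. JUND was at 70.6% (65.6 to 75.3) against 21.9% (20.7 to 23.1), a difference of 43.6 (38.6 to 48.6). MYC was at 57.1% (51.7 to 62.3) against 12.4% (11.5 to 13.4), a difference of 39.9 (34.6 to 45.2). HNF4A differed by 19.4 (14.4 to 24.4), H3K4me1 by 13.7 (10.3 to 17.1) and KLF5 by 7.79 (4.33 to 11.2). CTCF and RFX2, the targets called against goat IgG, differed by 2.15 (−0.598 to 4.89) and 1.22 (−0.584 to 3.02) points, and REST of the rabbit group by 2.08 (0.204 to 3.95). These are rare targets, with shares of 6.78% against 3.41%, 2.82% against 1.12% and 3.39% against 1.31%, so points understate them beside ratios. The cohesin, NIPBL, JUND, MYC, HNF4A, H3K4me1, KLF5 and REST lists share the rabbit IgG library of 4101535 tags, and its part in these values was not tested.

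Under control siRNA, at like NIPBL strength, the same 354 sites had HNF4A and JUND less often than the rest of the class. MYC was more frequent at them under both siRNAs. HNF4A was at 17.2% (13.4 to 21.6) of them and 24.3% (23.1 to 25.6) of the sites without later cohesin, a difference at like strength of −8.42 points (−12.7 to −4.15). JUND had −6.85 (−10.4 to −3.26). MYC was higher by 15.2 (9.85 to 20.5), and H3K4me1 differed by 0.334 (−3.77 to 4.44). RFX2 differed by 2.38 (0.0309 to 4.73), KLF5 by −1.55 (−6.22 to 3.12) and REST by 0.0755 (−1.20 to 1.35). The median number of the 11 targets with a peak, NIPBL included, was 3.00 under control siRNA both at these sites and at the sites without later cohesin.

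**Figure D5:**
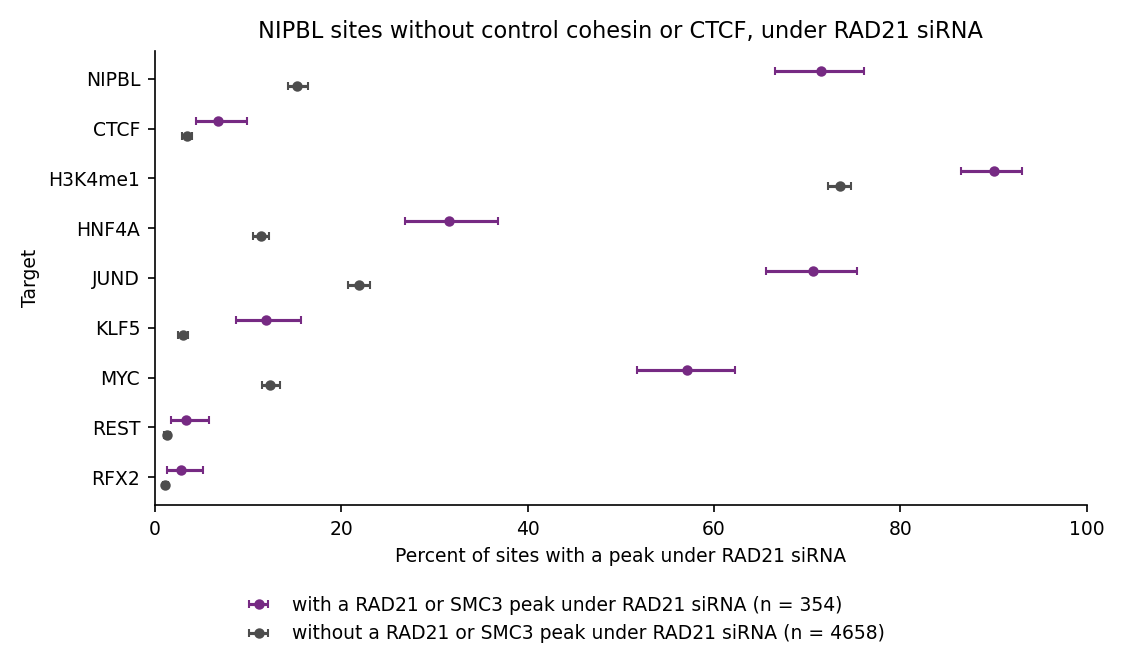
Percent of loader-only sites with a peak of each target under RAD21 siRNA, with 95% Clopper-Pearson intervals, for the 354 sites with a RAD21 or SMC3 peak in that treatment (purple) and the 4658 without (grey). NIPBL (71.5% against 15.3%), JUND (70.6% against 21.9%) and MYC (57.1% against 12.4%) stand furthest apart.

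Single sites show the range of the class (hg18 coordinates). Gene annotation on that build was not used here. The strongest site, on chromosome 12 from 108920692 to 108921656, had 331 NIPBL tags and −10 × log10 p of 1943 under control siRNA, with no peak of another target and the nearest RAD21, SMC3 or CTCF peak 42955 bp away. Under RAD21 siRNA it had NIPBL (660), RAD21 (265), H3K4me1 (69.6) and JUND (60.5) peaks, each with its −10 × log10 p in parentheses. The second, on chromosome 1 from 153175143 to 153177075, had NIPBL (1842) and MYC (241) under control siRNA. NIPBL (708), RAD21 (364), CTCF, H3K4me1 (320), JUND (82.5) and MYC (94.1) were there under RAD21 siRNA. The third, on chromosome 3 from 171422154 to 171422986, had NIPBL alone (1617) under control siRNA. NIPBL (1061), RAD21 (764), H3K4me1, JUND, KLF5 and MYC were there under RAD21 siRNA. All of these sites gained peaks of RAD21, H3K4me1 and JUND and none gained SMC3.

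The next strongest retained sites also had RAD21 under RAD21 siRNA, and differed from those above in H3K4me1, JUND and SMC3. On chromosome 10 from 127501752 to 127502699, NIPBL had −10 × log10 p of 1565 with 327 tags under control siRNA and 1488 with 127 tags under RAD21 siRNA, where its fold enrichment was 123. RAD21 (263) and SMC3 (63.8) were found there under RAD21 siRNA, and H3K4me1 and MYC under both. On chromosome 7 from 2359712 to 2361209, NIPBL had 1555 and 946, H3K4me1 and MYC were under both siRNAs, and RAD21 (488) was under RAD21 siRNA. The site on chromosome 5 from 137700680 to 137702002 held the most NIPBL tags of the class, 673, and had NIPBL (1410) alone under control siRNA and NIPBL (1384) and RAD21 (742) alone under RAD21 siRNA.

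Strong sites could also be lost. The strongest lost sites without another control peak lay on chromosome 1 from 205392618 to 205393825, with 168 tags and −10 × log10 p of 586, and on chromosome 19 from 17238836 to 17240328, with 177 tags and 478. Neither had a peak of any target under RAD21 siRNA. The third, on chromosome 5 from 148716984 to 148717750, had 64 tags and 229, and only H3K4me1 (157) was found there under RAD21 siRNA.

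Among the other sites, those with the strongest cohesin peak under RAD21 siRNA had RAD21 and no SMC3 in 5 of 5 cases. The presence of RAD21 was set by this choice. The p score of RAD21 peaks at loader-only sites reached 764, and that of SMC3 peaks only 248. Lack of SMC3 was also usual, at 248 of the 284 loader-only sites with RAD21. On chromosome 17 from 17081034 to 17082208, NIPBL (675) stood alone under control siRNA, and NIPBL (1016), RAD21 (591), H3K4me1, JUND and MYC were found under RAD21 siRNA. On chromosome 20 from 2030735 to 2031501, NIPBL had 1121 and 808, joined by RAD21 (507) and RFX2. RAD21 had 471 on chromosome 19 from 3450808 to 3452416, where NIPBL and H3K4me1 were under both siRNAs. It had 428 on chromosome 6 from 114398697 to 114399353 and 384 on chromosome X from 47765099 to 47766594, both with NIPBL alone under control siRNA and with NIPBL and H3K4me1 too under RAD21 siRNA. NIPBL was present under both siRNAs at all of these 5.

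The named sites with the most control targets had NIPBL −10 × log10 p between 85.4 and 245, beside the class median of 69.6. Ties in the number of targets went to the highest control NIPBL p, so these values were partly set by the choice. Over the whole class the median rose with the number of factors, from 62.2 with none to 126 with 4. On chromosome 17 from 35508395 to 35511609, H3K4me1 (684), HNF4A (645), JUND, KLF5 (121), MYC (660) and RFX2 joined NIPBL (180) under control siRNA, and 9 targets including RAD21 (103), SMC3 (58.3) and CTCF were there under RAD21 siRNA. On chromosome 19 from 10718721 to 10722088, H3K4me1 (3032) and the same 5 factors joined NIPBL (101), and 8 targets including RAD21 (123) and SMC3 (63.0) followed under RAD21 siRNA. The other crowded sites went a different way. The site on chromosome 2 from 96817550 to 96819153 had 7 targets, REST among them, and kept H3K4me1 and HNF4A. That on chromosome 15 from 57362494 to 57364012 had 6 and kept H3K4me1 (1594) alone. That on chromosome 1 from 109769732 to 109771472 had 6 and kept NIPBL (152), H3K4me1, HNF4A, JUND and MYC.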

How the data were processed

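The authors deposited 1 MACS 1.4.0rc2 peak list per ChIP library, called against IgG at a p cutoff of 1e-05 with an effective genome size of 2.75e+09 and 1 kept tag per position, per the file headers. CASAVA 1.4 and BWA on hg18 are named in the submitters' processing notes. Each deposited peak has a tag count, a −10 × log10 p score, a linear fold enrichment ratio and an FDR in percent, per the file headers. The FDR was read from the unnamed column 10, whose number of values under 5 equalled the number in the labels for all 22 lists. The 6 IgG libraries were not analysed as lists here. Groups came from titles, since the siRNA tag of most siRAD21 libraries gives another number than RAD21. The antibody number of the MYC libraries is, from general knowledge, a mouse antibody's where the title says rabbit.

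Computed here with Python 3.11.15, pandas 2.3.3 and scipy 1.17.1 were overlaps of at least 1 bp, 95% Clopper-Pearson intervals, and Mantel-Haenszel differences over 5 quantile strata of control NIPBL p, whose intervals treat sites as independent. For differences within the class, the strata were quantiles of loader-only p. Finer strata were run only for the differences between the classes. Helpers were tested on simulated data. No test between siRNAs was made. Where several peaks overlapped a site, the one with the highest p score was used. Members and lists were chosen with earlier results of these data known. Named regions were the highest by control NIPBL p among all sites, among retained sites and among lost sites without another target. Further ones were the highest by siRAD21 cohesin p and by number of control targets, with ties broken by control NIPBL p. Chromosome 8 regions were counted but not named.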

Additional observations from a re-analysis of the deposited data

How the results depend on the processing

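The differences between loader-only sites and other NIPBL peaks in retained NIPBL, H3K4me1 and factor shares kept their sign, with intervals clear of 0, under every alternative run. Their ranges were 3.30 to 19.2, −9.98 to −2.74 and −14.5 to −5.91 percentage points. Levels moved more. With control NIPBL peaks of −10 × log10 p of 100 or more there were 1130 sites, 45.3% retained, 81.7% with H3K4me1, 79.0% with a factor and 16.5% with siRAD21 cohesin. A further setting asked for an FDR under 5% in the other lists, except control JUND, which has no such peak. It also covered the RAD21, SMC3 and CTCF lists of the rule, so 6278 sites then met it. The shares of these were 7.88%, 73.1%, 60.2% and 2.29%. By summits within 250 bp the shares of the 5012 sites were 16.5%, 16.1%, 51.8% and 5.01%. Without JUND, an alternative chosen after seeing the data, 58.8% had a factor. With RAD21, SMC3 or CTCF left out of the rule in turn, also chosen after seeing the data, there were 5706, 6255 and 5490 sites. With no cohesin or CTCF peak within 1000 bp there were 4634. No paired analysis was possible because each target had 1 library per siRNA. The NIPBL library held 7006171 filtered tags under RAD21 siRNA, and the part of its depth in what was found again was not tested.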

Other observations

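Loader-only sites far from cohesin or CTCF had H3K4me1 less often than those close by. H3K4me1 was at 85.4% (81.5 to 88.8) of sites within 1000 bp of a control RAD21, SMC3 or CTCF peak and at 72.8% (70.5 to 75.0) of those more than 20000 bp away. A factor was at 63.0% (57.9 to 67.8) and 58.4% (55.9 to 60.9). The median −10 × log10 p of NIPBL was 67.0 and 70.2, and its median tags were 45.5 and 40.0. The retained share was 17.2% (13.5 to 21.4) and 19.3% (17.3 to 21.3), and the share with siRAD21 cohesin 7.41% (4.98 to 10.5) and 6.27% (5.11 to 7.60). Intervals overlapped for the factor, retained and cohesin shares. Another control NIPBL summit lay within 10000 bp of 20.8% (19.7 to 22.0) of loader-only sites and 25.5% (24.5 to 26.6) of the other NIPBL peaks.

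Across chromosomes 1 to 22 and X, loader-only sites made up 37.5% (33.7 to 41.3) of the control NIPBL peaks on chromosome 12 at the lowest and 48.5% (44.4 to 52.7) on chromosome 5 at the highest. Retention spanned more, from 12.3% (7.87 to 18.0) on chromosome 8 to 32.3% (25.9 to 39.3) on chromosome 19. Chromosome 19 also had the highest median NIPBL significance of these chromosomes, 79.7, and the highest share of loader-only sites with MYC, 54.2%. HNF4A was at 19.4% of them. These chromosomes were singled out after their values were seen, and their retained shares were not compared at like NIPBL strength.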
